A study of Rattus norvegicus with 24 samples.

Results

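The genes described here are 8 members of the rat RT1 system, the major histocompatibility complex (MHC) of the rat, and its class II partner genes: RT1-Da, RT1-Db1, RT1-Ba, RT1-Bb, RT1-DMa, RT1-DMb, Cd74 and RT1-T24-3. They were chosen by symbol, as the probe sets whose only gene symbol in the platform annotation is 1 of these names. That gave 13 of 31042 probe sets, for 8 of 14217 genes with a symbol of their own, and each of the 13 was bright enough to be tested. A probe set is a group of short probes meant to read a transcript, and some match several genes (436 probe sets have several symbols). Whether probes named for 1 RT1 gene also read other RT1 genes was not tested. A gene with several is represented by the brightest, which applied to RT1-Ba with 4 probe sets, RT1-Bb with 2 and RT1-Db1 with 2.

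MHC class II molecules are pairs of an alpha and a beta chain that carry peptides from taken-up protein to the cell surface and show them to CD4+ T cells. In the rat RT1-Da and RT1-Db1 encode the chains of the RT1-D molecule, and RT1-Ba and RT1-Bb those of RT1-B. Cd74, the invariant chain, escorts newly made class II pairs through the cell, and the pair of RT1-DMa and RT1-DMb exchanges the remnant of Cd74 for peptide. These genes are mainly expressed by dendritic cells, macrophages and B cells, and interferon gamma can induce them in other cells, thyroid follicular cells included. RT1-T24-3 is not a class II gene: it belongs to the class I-like genes of the same complex.

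The study measured thyroid total RNA on 24 Affymetrix arrays, 1 per sample, in 8 groups of 3, from adult male rats of the Sprague-Dawley stock. The groups were an iodine-deficient diet with perchlorate in the water, the iodine-deficient diet with normal water, a normal diet with perchlorate in the water, and controls on normal diet and water, each at day 1 and day 14. Every rat was kept for 2 months plus 1 or 14 days on its diet, and perchlorate was given for 1 or 14 days, with 95 mg of the potassium salt in each liter of water. Perchlorate competes with iodide for uptake into follicular cells, and the diet limits the supply of iodide. The groups are called diet with perchlorate, diet, perchlorate and control below. The RNA came from thyroid tissue and not from sorted cells, so fewer cells of a type and less RNA per cell cannot be told apart. The labels do not state whether each array is a separate animal, so p-values reflect only how far these arrays differ within a group, and that spread may be technical.

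Levels are log2(intensity + 16) after quantile normalization, and a difference between groups is a log2 fold change on that scale. Changes of dim probe sets come out too small on it. Levels are compared within a probe set only. Arrays of 1 group correlated at 0.851 to 0.980 over the tested probe sets (median 0.973), and no array duplicated another (0 identical pairs). One array was unlike the rest, perchlorate replicate 18 of day 1, with a median absolute deviation of 0.675 from the median of the other arrays, against 0.130 to 0.287 in the other 23. Thyroid follicular markers had a mean level between 11.27 and 11.63 in every array. Pth, the parathyroid hormone gene, stood at 13.42 to 14.07 in every array.

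In the RefSeq assembly GRCr8, matched by Entrez number, 6 of the genes lie within 197 kb of chromosome 20, from 4515393 to 4712335. RT1-T24-3 lies 1763 kb away on the same chromosome, and Cd74 on chromosome 18. Class II promoters share an X box, bound by the RFX complex, and a Y box, bound by NF-Y, and the coactivator Ciita acts through the proteins bound there. On their brightest probe sets the chains of RT1-D varied together across arrays, and those of RT1-B did not follow them. The promoters of these 4 chains are shown, and their part in the levels was not tested. Each is the RefSeq sequence of 120 bases directly upstream of the gene's start, 5′ to 3′ on the gene's strand, with matches to the X core AGNAAC and the Y core GATTGG, on either strand, in capitals. They are RT1-Da at chr20:4515273-4515392 (plus strand), RT1-Db1 at chr20:4560183-4560302 (minus strand), RT1-Ba at chr20:4576937-4577056 (plus strand) and RT1-Bb at chr20:4604119-4604238 (minus strand).
RT1-Da: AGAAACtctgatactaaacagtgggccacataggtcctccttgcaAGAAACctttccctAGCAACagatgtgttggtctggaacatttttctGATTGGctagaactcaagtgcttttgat
RT1-Db1: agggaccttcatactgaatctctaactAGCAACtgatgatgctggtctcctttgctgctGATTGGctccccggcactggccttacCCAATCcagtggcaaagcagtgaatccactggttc
RT1-Ba: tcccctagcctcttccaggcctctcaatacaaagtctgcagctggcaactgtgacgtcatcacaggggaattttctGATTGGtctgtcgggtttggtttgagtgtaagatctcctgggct
RT1-Bb: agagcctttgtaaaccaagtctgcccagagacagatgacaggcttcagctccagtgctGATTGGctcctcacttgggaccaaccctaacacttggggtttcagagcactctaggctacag

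The Y core stands in all 4 of these promoters, 28 bases before the start of RT1-Da, 61 before RT1-Db1, 44 before RT1-Ba and 62 before RT1-Bb. In windows of 300 bases around the start, the Y core was found for 6 of the 7 genes with a RefSeq window, against 14.8% of all 33469 windows, and the X core for 5 of 7, against 48.6%. An X core 10 to 40 bases upstream of a Y core on the same strand was found for RT1-Da, with 27 bases between them, and for RT1-Db1, with 26, against 0.604% of all windows. These are exact matches of letters, and near matches were not counted. The printed RT1-Ba sequence holds ggcaac, and that of RT1-Bb agagac, at like distances upstream of the Y core. Each differs from the X core in a single letter, so the count does not show that RT1-B lacks an X box. The cores do not overlap each other, and binding was not measured.

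RT1-T24-3 was the gene of the 8 that differed most clearly between groups, with perchlorate arrays below the controls at day 1 and above them at day 14, of which the second passed the test. RT1-Da, RT1-Db1, RT1-DMa, RT1-DMb and Cd74 had their highest group mean at day 14 of diet with perchlorate, and over 24 arrays none of these 5 passed the test against control. On their brightest probe sets RT1-Ba and RT1-Bb did not follow them. There, the lowest arrays, 3 for RT1-Ba and 4 for RT1-Bb, all came from perchlorate at day 1 and diet with perchlorate at day 14. Some of these low arrays were among the highest on another probe set of the same gene. Other arrays of the same groups were not low: diet with perchlorate replicate 29 held the highest RT1-Ba of all arrays (11.82), and replicate 30 held 9.27 for RT1-Bb. A dimmer probe set of RT1-Ba, 1370822_at, had its highest group mean at day 14 of diet with perchlorate (9.21). The moderated F test of limma over the 8 groups called 1 of the 8 genes, RT1-T24-3 (adjusted p = 0.0084), against 7.80% of all 18625 tested probe sets. Without replicate 18 it called 2, RT1-T24-3 (adjusted p = 0.0197) and RT1-DMb (adjusted p = 0.0362), against 13.1%.

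**Figure D1:**
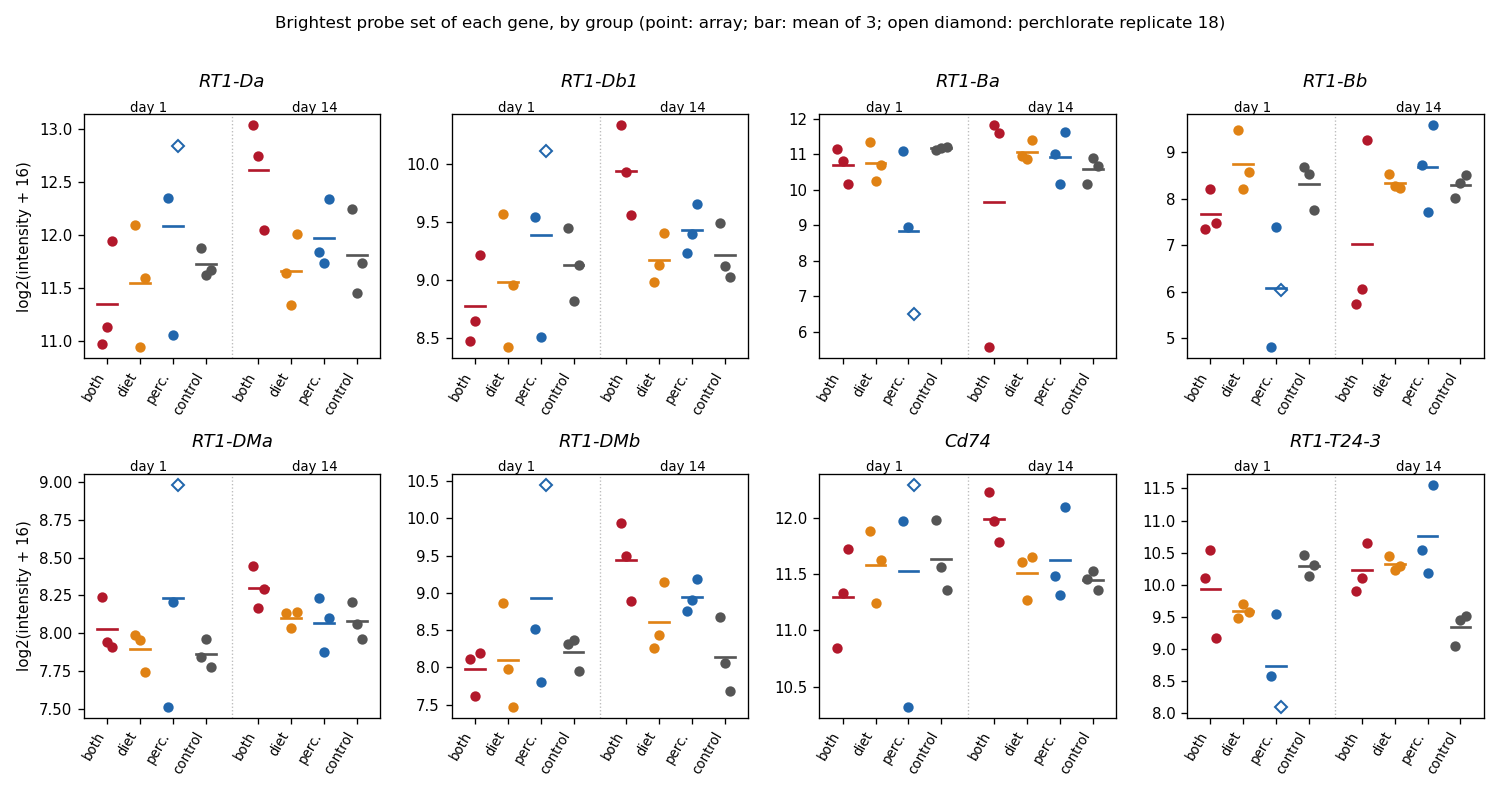
Level of the brightest probe set of each gene, log2(intensity + 16), in the 8 groups (both is diet with perchlorate, perc. is perchlorate), with 1 point per array, a bar at the mean of 3 and an open diamond for perchlorate replicate 18. RT1-T24-3 is between 10.19 and 11.56 in the perchlorate arrays of day 14, above the controls at 9.03 to 9.51. RT1-Ba and RT1-Bb each have low arrays in perchlorate at day 1 and in diet with perchlorate at day 14.

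RT1-Da, the alpha chain of RT1-D, stood at 13.04, 12.75 and 12.05 in diet with perchlorate replicates 27, 29 and 30 of day 14, against 12.25, 11.45 and 11.73 in control replicates 43, 44 and 47. Replicates 27 and 29 exceeded every control, and replicate 30 lay below control replicate 43, so the groups overlap. The difference was 0.80 (SE 0.37, a fold of 1.74, limma adjusted p = 0.215). The diet arrays of day 14 held 11.64, 11.34 and 12.01 and the perchlorate arrays 11.84, 11.74 and 12.35, and both groups overlap with the controls.

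RT1-Db1, the beta chain of RT1-D, stood at 10.34, 9.94 and 9.56 in diet with perchlorate at day 14, against 9.49, 9.12 and 9.03 in the controls. The groups do not overlap, though replicate 30 lay just above control replicate 43. The difference was 0.73 (SE 0.33, limma adjusted p = 0.195). The same 2 arrays, replicates 27 and 29, were the highest of the group for both chains.

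RT1-DMb, the beta chain of the peptide exchanger, stood at 9.94, 9.49 and 8.89 in diet with perchlorate at day 14, against 8.67, 8.05 and 7.68 in the controls. The groups do not overlap. The difference was 1.31 (SE 0.47, a fold of 2.47, limma adjusted p = 0.0922), and without replicate 18, an array of another group, the estimate moved by less than 0.01 and the adjusted p was 0.0129. RT1-DMa, its alpha partner, stood at 8.45, 8.17 and 8.29, against 8.21, 8.06 and 7.96 in the controls, and differed by 0.22 (SE 0.23, adjusted p = 0.658). Cd74 stood at 12.23, 11.97 and 11.79, against 11.46, 11.53 and 11.36 in the controls, which do not overlap with them, and differed by 0.55 (SE 0.35, adjusted p = 0.391).

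In that comparison limma called 0 of the 8 genes over 24 arrays, against 8.85% of all probe sets. At an unadjusted p under 0.05 stood 4 of the 8 (RT1-Da, RT1-Db1, RT1-DMb and RT1-T24-3), with 4036 of 18625 probe sets. Without replicate 18 it called 1, RT1-DMb, against 15.1%. The median log2 fold change of the 8 genes was 0.64, and that of all tested probe sets -0.06.

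Against its own day 1, diet with perchlorate at day 14 gave the widest spread of group means for RT1-Da, RT1-Db1, RT1-DMb and Cd74. At day 1 RT1-Da held 10.97, 11.14 and 11.95 in replicates 2, 3 and 6, so that all 3 arrays of day 14 lay above them. The difference was 1.26 for RT1-Da (SE 0.37, adjusted p = 0.0823), 1.17 for RT1-Db1 (SE 0.33, adjusted p = 0.0693) and 1.47 for RT1-DMb (SE 0.47, adjusted p = 0.108). limma called 0 of 8 here, against 1.83% of probe sets, and these 3 had an unadjusted p under 0.05, with 2994 of 18625 probe sets. Without replicate 18 it called these 3, with adjusted p of 0.0349, 0.0226 and 0.0167, against 6.73%. Leaving out that array moves the estimates by less than 0.01 and lowers the shared estimate of the spread: the SE of RT1-DMb was 0.34 in place of 0.47. Tested as a difference of differences, the effect of diet with perchlorate at day 14 minus that at day 1 was 1.17 for RT1-Da, 1.08 for RT1-Db1 and 1.54 for RT1-DMb, and limma called 0 of the 8, against 0% of probe sets. An unadjusted p under 0.05 was found for 4 of the 8, and for 1625 of 18625 probe sets.

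**Figure D2:**
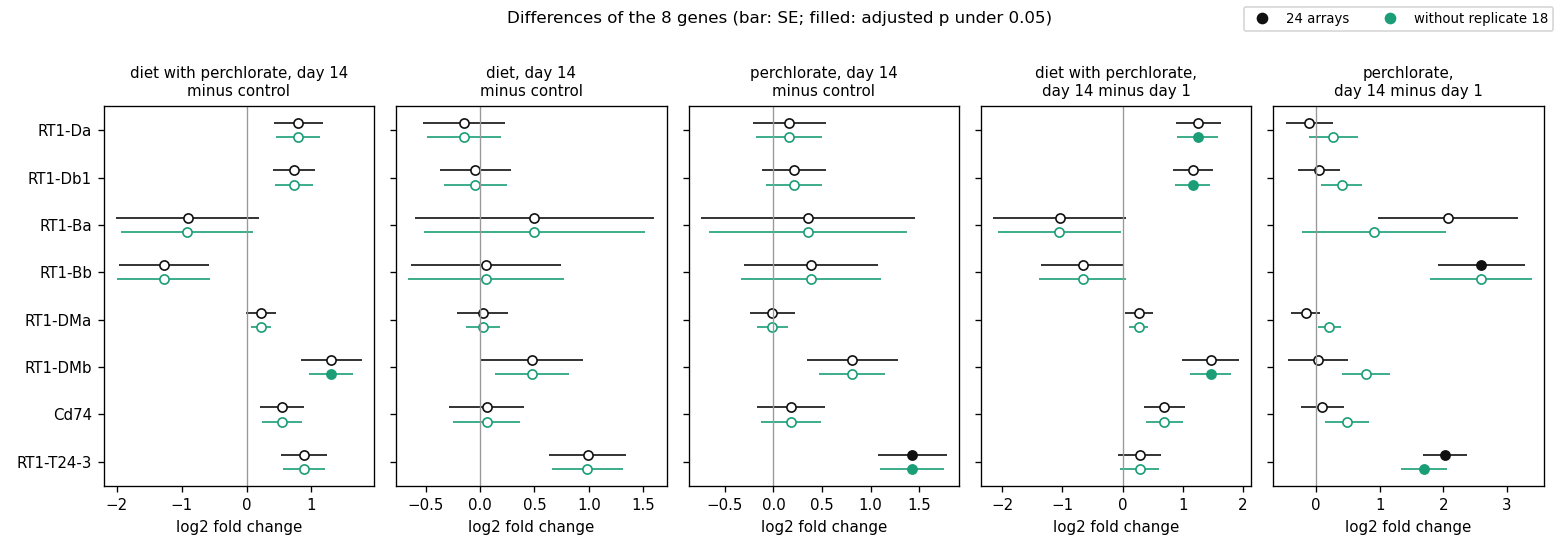
Log2 fold change of each gene in 5 comparisons, with bars for the SE, over 24 arrays (black) and without perchlorate replicate 18 (green), and filled points at an adjusted p under 0.05. RT1-T24-3 passes in perchlorate at day 14 against control (1.43) and against its own day 1 (2.03), and RT1-DMb passes in diet with perchlorate only without replicate 18.

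Perchlorate replicate 18 held the highest level of all 24 arrays for RT1-DMb (10.45), RT1-DMa (8.98) and Cd74 (12.30), and the second highest for RT1-Da (12.84) and RT1-Db1 (10.12), after diet with perchlorate replicate 27 of day 14. The other perchlorate arrays of day 1 held 8.52 and 7.80 for RT1-DMb in replicates 15 and 16, against 8.32, 8.37 and 7.94 in control replicates 21, 22 and 24. The group mean of RT1-DMb at day 1 of perchlorate was 8.92 ± 1.37 (SD, n = 3) with replicate 18 and 8.16 without it, against 8.21 ± 0.23 in the controls (SD, n = 3). Replicate 16 held the lowest Cd74 of all arrays, 10.32, so the perchlorate arrays of day 1 span the whole range of that gene.

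RT1-Ba, the alpha chain of RT1-B, was read by 4 probe sets that disagreed from array to array. On its brightest, 1377334_at, the level was 10.16 to 11.82 in 21 arrays. It was 5.57 in diet with perchlorate replicate 27 of day 14, 6.51 in perchlorate replicate 18 of day 1 and 8.95 in perchlorate replicate 16 of day 1. Probe set 1381593_x_at showed another split: 12.54 in replicate 27, 11.65 in perchlorate replicate 40 of day 14 and 10.96 in replicate 16, against 5.19 to 6.81 in the other 21 arrays. Probe set 1392334_at separated the same 3 arrays, at 12.22, 11.48 and 10.81, against 5.27 to 6.31. These 3 arrays come from 3 groups, all given perchlorate, and the other arrays of each group lie with the remaining 21. The fourth probe set, 1370822_at, ran from 6.24 to 9.80 with no such step. Its group mean was highest in diet with perchlorate at day 14 (9.21) and lowest in diet with perchlorate at day 1 (7.40), as for RT1-Da.

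RT1-Bb, the beta chain of RT1-B, showed a mirrored pattern between its probe sets. Its brightest, 1371065_at, was lowest in perchlorate replicate 15 of day 1 (4.80), diet with perchlorate replicate 27 of day 14 (5.73), perchlorate replicate 18 of day 1 (6.03) and diet with perchlorate replicate 29 of day 14 (6.06), and at 7.35 or more in the other 20 arrays. On probe set 1371033_at those same arrays held 9.87, 10.86, 11.04 and 9.83, among the highest. That probe set was also high in diet with perchlorate replicate 6 of day 1 (9.11), perchlorate replicate 16 of day 1 (7.19), perchlorate replicate 40 of day 14 (8.03) and control replicate 43 of day 14 (9.27), and at 5.32 or less in the other 16 arrays. All of these high arrays but control replicate 43 come from groups given perchlorate, and no array of diet alone is among them. Whether the pattern runs with perchlorate was not tested.

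The second probe set of RT1-Db1, 1370382_at, was high in 6 of those 8 arrays, with 10.14 in perchlorate replicate 18 and 8.74 to 9.48 in replicates 6, 15, 27, 29 and 43, against 6.16 to 7.13 in the other 18. Its brightest probe set had no gap wider than 0.28. A gene outside the 8, RT1-CE16, a class I gene of the RT1 complex, was high in exactly the 8 arrays in which 1371033_at was high, at 8.87 to 10.60, against 5.18 to 5.93 in the other 16. RT1-CE10, another class I gene, was highest in replicates 16, 27 and 40, the 3 arrays of the RT1-Ba step, at 10.05, 10.75 and 10.32. RT1-N2, also class I, was lowest in replicates 15, 18, 27 and 29, at 5.79, 4.19, 5.70 and 5.26.

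**Figure D3:**
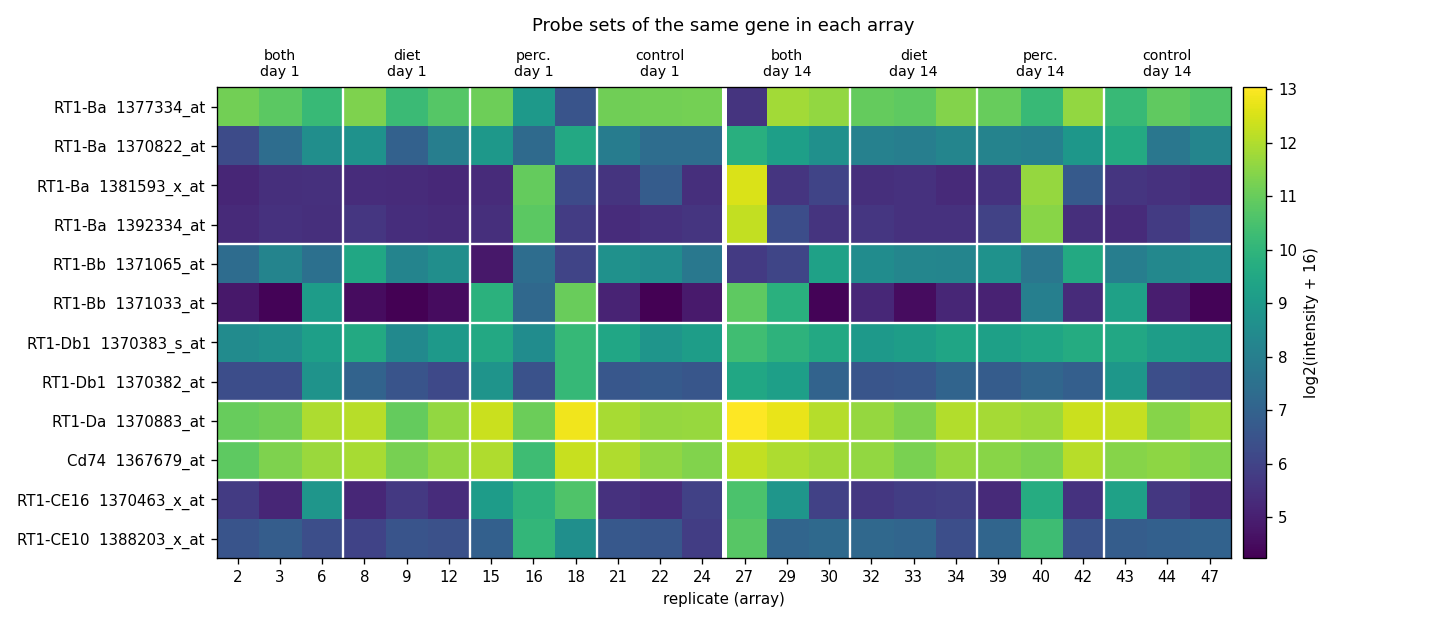
Level of each probe set (rows) in each array (columns, by replicate number within group), log2(intensity + 16) as colour, for the genes with several probe sets, for RT1-Da and Cd74, and for the class I genes RT1-CE16 and RT1-CE10. Replicates 16, 27 and 40, from 3 groups given perchlorate, are bright on RT1-Ba 1381593_x_at and 1392334_at (10.81 to 12.54). Probe set 1371033_at of RT1-Bb is bright in the same 8 arrays as RT1-CE16.

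Steps of this size were uncommon. A gap of 2 or more between neighbouring arrays, with at least 3 arrays on each side, was present in 11 of 18625 tested probe sets (0.0591%), of which 2 belong to RT1-Ba (gaps of 4.16 and 4.50) and 1 is RT1-CE16 (2.94). The width of the gap was set after the values were seen, and no test was made of it. RT1 class II genes are highly polymorphic between rat haplotypes, and Sprague-Dawley is an outbred stock. The haplotypes of these rats are not given in the sources used here, and their part in the steps was not tested.

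The pattern of the 8 arrays with high RT1-CE16 runs in part with other members. RT1-Da was highest in replicates 27, 18, 29 and 15. Its highest control of day 14 was replicate 43, and its highest array of diet with perchlorate at day 1 was replicate 6. Replicate 16 was instead among its lowest, at 11.06, and replicate 40 was the lowest of perchlorate at day 14, at 11.74. RT1-T24-3 was lowest in replicates 18, 15, 43 and 6.

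The probe sets of RT1-B differed in direction between groups. In perchlorate at day 1 RT1-Bb on its brightest probe set held 4.80, 7.38 and 6.03 in replicates 15, 16 and 18, against 8.69, 8.53 and 7.75 in the controls, a difference of -2.25 (SE 0.69, limma adjusted p = 0.423). Its other probe set held 9.87, 7.19 and 11.04, against 5.11, 4.24 and 4.86 in the controls, a difference of 4.63 (SE 1.46, adjusted p = 0.429). The 2 probe sets of 1 gene thus differed in opposite directions, each with no overlap between the groups. RT1-Ba differed by -2.32 on its brightest probe set (SE 1.10, adjusted p = 0.491). Without replicate 18 the brightest probe sets gave -2.24 for RT1-Bb and -1.15 for RT1-Ba. limma called 0 of the 8 genes in perchlorate at day 1 against control, against 0% of all probe sets. At an unadjusted p under 0.05 stood 3 of the 8 (RT1-Ba, RT1-Bb and RT1-T24-3), with 1888 of 18625 probe sets.

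RT1-Bb passed the test in 1 comparison, perchlorate at day 14 against perchlorate at day 1. It held 8.73, 7.71 and 9.58 in replicates 39, 40 and 42 of day 14, and the difference was 2.60 (SE 0.69, adjusted p = 0.0307). On the other probe set the difference was -3.22 (SE 1.46, adjusted p = 0.188), and with the mean of both probe sets it was -0.31 (adjusted p = 0.723), so the direction depended on the probe set. Without replicate 18 the brightest probe set gave 2.59 (adjusted p = 0.0816). limma called 2 of the 8 genes in this comparison, RT1-Bb and RT1-T24-3, against 5.17% of probe sets, and without replicate 18 it called RT1-T24-3 alone, against 3.61%.

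RT1-T24-3, the class I-like gene, was read by 1 probe set, whose widest gap with at least 3 arrays on each side was 0.28, above its lowest 4 arrays. Those 4, replicates 6, 15, 18 and 43, are all among the 8 arrays in which RT1-CE16 and 1371033_at of RT1-Bb were high. At day 1 RT1-T24-3 held 8.58, 9.54 and 8.09 in perchlorate replicates 15, 16 and 18, against 10.46, 10.13 and 10.30 in control replicates 21, 22 and 24. All 3 perchlorate arrays lay below all 3 controls. All 3 are also among the 8 arrays with high RT1-CE16, and 0 of the 3 controls are, so at day 1 the array pattern and the group cannot be told apart. The difference was -1.56 (SE 0.35, or 2.95-fold lower in perchlorate), and its limma adjusted p was 0.248, in a comparison in which no probe set was called. Without replicate 16 the gene passed (-1.96, adjusted p = 0.0224), and without replicate 18 the difference was -1.24 (adjusted p = 0.502).

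At day 14 the order was the opposite. RT1-T24-3 held 10.54, 10.19 and 11.56 in perchlorate replicates 39, 40 and 42, against 9.03, 9.45 and 9.51 in control replicates 43, 44 and 47, with no overlap. In each of these groups 1 array had high RT1-CE16, perchlorate replicate 40 and control replicate 43, and it was the lowest of its group. RT1-T24-3 rose by 1.43 (SE 0.35, a fold of 2.69, limma adjusted p = 0.0241), the 1 gene of the 8 called in that comparison, against 3.57% of probe sets. The call was lost without replicate 39, 42, 43, 44 or 47, each left out in turn, with adjusted p of 0.0528 to 0.198, and the difference stayed between 1.03 and 1.72 under the alternatives run. RT1-DMb differed by 0.81 in the same comparison (SE 0.47, adjusted p = 0.491), and the other 6 genes by -0.01 to 0.39.

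The effect of perchlorate on RT1-T24-3 at day 14 exceeded that at day 1 by 2.99 (SE 0.50, 95% interval 1.96 to 4.03, limma adjusted p = 0.0062), and it was called under all 23 alternatives, with a highest adjusted p of 0.0459. It includes the day 1 comparison, in which the pattern of RT1-CE16 runs with the group, and the part of that pattern was not tested. Without replicate 18 it was 2.66 (adjusted p = 0.0160). In that comparison limma called 1 of the 8 genes, against 0.553% of probe sets. Both arms contributed: the perchlorate arrays rose by 2.03 at day 14 over day 1 (SE 0.35, adjusted p = 0.0023, 0.168 in a fit of these groups alone and 0.0138 without replicate 18), and the controls differed by -0.97 (SE 0.35, adjusted p = 1.00), with no overlap between 9.03 to 9.51 at day 14 and 10.13 to 10.46 at day 1. For the controls limma called 0 of the 8 genes and 0% of probe sets. RT1-T24-3 alone of the 8 had an unadjusted p under 0.05, with 765 of 18625 probe sets.

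The other groups of day 14 also stood above the day 14 controls. In diet with perchlorate the arrays with high RT1-CE16, replicates 27 and 29, were the lower ones, as was replicate 6 at day 1. RT1-T24-3 held 9.90, 10.11 and 10.65 in diet with perchlorate, a difference of 0.89 (SE 0.35, adjusted p = 0.132), and 10.45, 10.22 and 10.29 in diet, a difference of 0.99 (SE 0.35, adjusted p = 0.291). These comparisons share the 3 control arrays. Neither passed the test. At day 1 the diet arrays, at 9.47, 9.70 and 9.57, lay below the controls by 0.72 (adjusted p = 0.850), and those of diet with perchlorate, at 10.11, 10.54 and 9.16, overlapped with them. The order of group means at day 1, from the lowest, was perchlorate 8.73 ± 0.74, diet 9.58 ± 0.11, diet with perchlorate 9.94 ± 0.70 and control 10.30 ± 0.16 (SD, n = 3 each), in which the means of diet with perchlorate and diet differed by less than the 0.70 SD of diet with perchlorate. At day 14, from the highest, it was perchlorate 10.76 ± 0.71, diet 10.32 ± 0.12, diet with perchlorate 10.22 ± 0.39 and control 9.33 ± 0.26 (SD, n = 3 each), and the 3 exposed groups overlapped.

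The deficient diet by itself called none of the 8 genes with limma. This held at day 1 (0.0537% of probe sets called), at day 14 (0.220%), for the mean of both days (1.03%) and for diet at day 14 against diet at day 1 (0.00537%). At an unadjusted p under 0.05 stood 0 of 8 at day 1, with 1090 of 18625 probe sets, 1 at day 14 (RT1-T24-3), with 1772, 0 for the mean of both days, with 2249, and 1 for day 14 against day 1 (RT1-T24-3), with 663. Over both days RT1-Da differed by -0.16 (95% interval -0.71 to 0.38), RT1-Db1 by -0.10 (-0.58 to 0.39) and Cd74 by 0.00 (-0.50 to 0.51). For RT1-Ba the interval ran from -1.57 to 1.67.

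Adding perchlorate to the diet, that is diet with perchlorate against diet, called none of the 8 genes at either time. Diet with perchlorate against control at day 1 and against perchlorate at day 14 called none either. Diet with perchlorate at day 1 gave 0 of 8 against control (0.601% of probe sets called) and 0 of 8 against diet (0.00537%), with limma. At day 14 it gave 0 of 8 against diet (0.209%) and 0 of 8 against perchlorate (0.00537%). At an unadjusted p under 0.05 stood 0 of 8 in both comparisons of day 1, with 1975 and 1087 of 18625 probe sets. At day 14 they were 2 against diet (RT1-Da and RT1-Db1), with 1482 probe sets, and 1 against perchlorate (RT1-Bb), with 483. RT1-Da at day 14 was higher in diet with perchlorate than in diet by 0.95 (SE 0.37, limma adjusted p = 0.469), with all 3 arrays above all 3 diet arrays. The interaction of diet and perchlorate at day 14 called 0 of 8, against 0.0161% of probe sets. With an unadjusted p under 0.05 was 1 of 8, and 580 probe sets: RT1-T24-3 at -1.53 (SE 0.50, adjusted p = 1.00).

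Among the 8 genes, RT1-Da, RT1-Db1, RT1-DMb and Cd74 varied together from array to array. Over the 23 arrays without replicate 18, Pearson's r was 0.956 for RT1-Da with RT1-Db1, 0.812 for RT1-Da with Cd74, 0.802 for RT1-Da with RT1-DMb, 0.840 for RT1-Db1 with RT1-DMb, 0.802 for RT1-Db1 with Cd74 and 0.600 for RT1-DMb with Cd74. The arrays share their groups and their normalization, so these values are a description. RT1-DMa followed RT1-Da less closely, at 0.179, with group means spanning 0.44 in all. RT1-Da ran weakly the other way to RT1-Ba (-0.22) and RT1-Bb (-0.34), each on its brightest probe set only. A mean over the 6 class II chains and Cd74 therefore does not follow their common level: it put replicate 27, highest in RT1-Da and RT1-Db1, at rank 21 of 24, and the genes most like that mean are not named.

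Other genes of the class II pathway were taken from a list of 18, of which 14 were measured and 13 tested. In diet with perchlorate at day 14 against control, 3 of 13 rose and 0 fell, with a median of 0.17 against -0.06 for all tested probe sets. Of all probe sets 8.85% were called in that comparison and 3.57% in perchlorate at day 14, the shares against which this and the following list counts stand. Ctss, the cathepsin that trims Cd74 in antigen-presenting cells, rose by 1.87 (SE 0.26, limma adjusted p = 0.000103). Its level was 11.80, 11.41 and 11.28 in replicates 27, 29 and 30, above all 3 controls. Cd40, a receptor through which T cells activate antigen-presenting cells, rose by 1.94 (adjusted p = 0.0019), and the costimulator Cd86 by 1.02 (adjusted p = 0.0055). Ciita, the coactivator of class II promoters, stood at 7.87, 7.48 and 7.22, against 6.75, 6.88 and 6.59 in the controls, a difference of 0.78 (adjusted p = 0.0785, and 0.0183 without replicate 18).

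In perchlorate at day 14 against control 2 of the 13 rose and 0 fell, Ctss by 1.15 (adjusted p = 0.0134) and Cd40 by 1.65 (adjusted p = 0.0137). Without replicate 18 it was 4 of 13, with Ctsl (adjusted p = 0.0402) and Cd86 (adjusted p = 0.0361) added. At day 1 of perchlorate, where the representative probe sets of RT1-Ba and RT1-Bb had their lowest group means, 0 of the 13 passed the test with limma. The list of class I pathway genes had 17 of 26 measured and 16 tested, and with limma 0 passed in diet with perchlorate at day 14 and 0 in perchlorate at day 14, where 1 passed without replicate 18. Of the interferon gamma list, with 15 of 17 measured and 12 tested, 3 rose in diet with perchlorate at day 14: Gbp2 by 1.28, Cxcl11 by 1.02 and Gbp4 by 1.07. Ifng, the cytokine itself, stood at 4.06 to 5.01 in all arrays and was too dim to be tested.

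Macrophage markers were higher in diet with perchlorate at day 14, the group with the highest means of RT1-Da, RT1-Db1, RT1-DMa, RT1-DMb and Cd74. Of 15 listed, 14 were measured and 13 tested, and 10 rose and 0 fell, with a median of 1.26. Adgre1, a macrophage surface receptor, held 9.19, 8.64 and 8.88, against 7.64, 7.11 and 7.91 in the controls, and rose by 1.35 (SE 0.24, limma adjusted p = 0.0010). The mannose receptor Mrc1 rose by 1.26, the Fc receptor Fcgr1a by 1.58 and Aif1 by 1.47. The mean level of the list was 8.52 to 8.97 in diet with perchlorate at day 14, against 7.42 to 7.85 in the controls, with no overlap. The perchlorate arrays of day 14 ran from 8.15 to 8.87, with 5 of 13 markers called higher. In the same comparison RT1-DMb differed by 0.81, and RT1-Da, RT1-Db1 and Cd74 by 0.16 to 0.21. In diet at day 14 it was 8.18 to 8.59, with 1 of 13 called, and 3 without replicate 18.

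The dendritic cell list, with 9 of 13 measured and 6 tested, had 2 called higher in diet with perchlorate at day 14: Itgax by 2.01 (adjusted p = 0.0016) and Clec10a by 1.12 (adjusted p = 0.0365). For perchlorate at day 14 it had 1, Itgax, and 2 without replicate 18. Of the B cell list, with 11 of 14 measured and 6 tested, 1 was called higher, Pou2af1 by 1.72 (adjusted p = 0.0026). The defining B cell genes Cd79b, at 4.10 to 5.21, and Ms4a1, at 4.14 to 6.04, were too dim to be tested. The part of these cells in the levels of the class II genes was not tested.

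T cell markers, of which 14 of 14 were measured and 6 tested, were high in single arrays. Their mean level was 8.63 in perchlorate replicate 15 of day 1, 7.78 in diet with perchlorate replicate 29 of day 14, 7.66 in perchlorate replicate 18 of day 1 and 6.91 in diet replicate 32 of day 14, against 5.43 to 6.10 in the other 20. Cd3d, a subunit of the T cell receptor complex, held 10.74 in replicate 15 and 8.45 or more in each of these 4, against 4.39 to 7.01. RT1-Da was highest in replicate 27 (13.04), where T cell markers were at 6.07, and next in replicates 18 (12.84), 29 (12.75) and 15 (12.35), 3 of the 4 arrays with high T cell markers. Replicate 18 also held the highest RT1-DMb, 10.45. The thymus list, with 3 of 12 measured, was highest in replicates 15 (9.79), 29 (9.19) and 32 (8.37), which also had high T cell markers. Replicate 18 held 8.19 on it, below control replicate 43 of day 14 at 8.31. The part of T cells or of thymus signal in the levels of the class II genes was not tested. Of the remaining lists, endothelial markers had 6 of 9 tested called higher in diet with perchlorate at day 14, led by Vwf at 2.69, and 5 in perchlorate at day 14. C cell markers had 2 of 5 called lower in diet with perchlorate at day 14 (Calcb at -1.93 and Scg2 at -2.15), parathyroid markers 1 of 2 (Casr at -1.81, and -1.56 in perchlorate) and thyroid follicular markers 1 of 8 (Foxe1 at -0.51). With limma, 0 of 6 tested T cell, 0 of 2 thymus, 0 of 8 skeletal muscle and 0 of 6 adipocyte markers passed against control at day 14. In replicate 18 the skeletal muscle list stood at 8.19, within its range of 5.28 to 10.62 over all arrays.

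**Figure D4:**
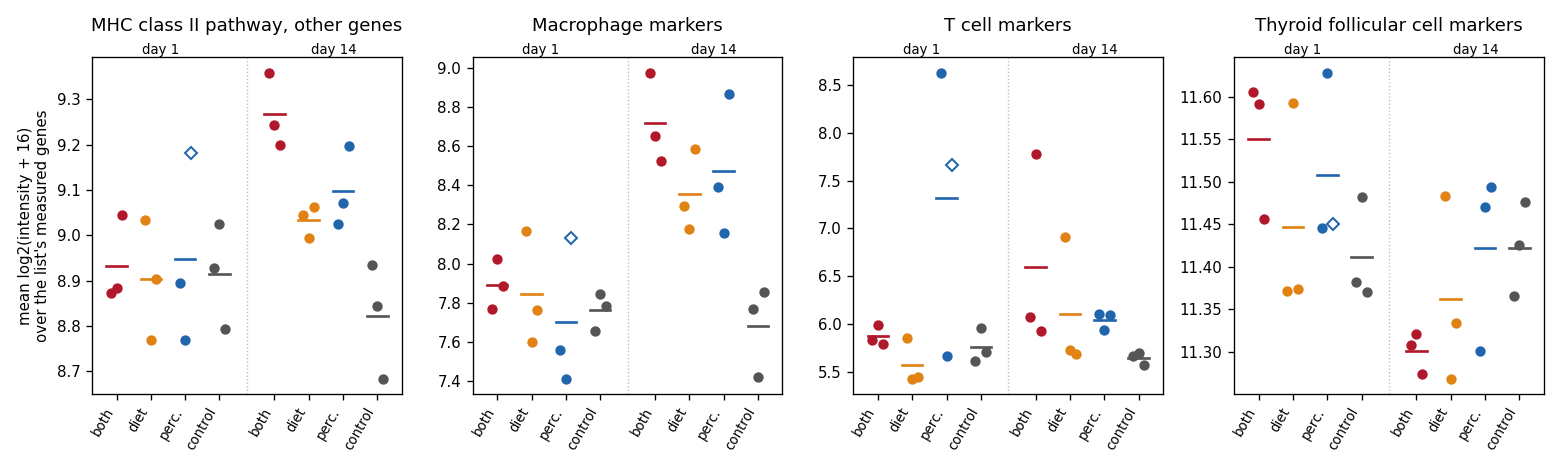
Mean level of 4 gene lists, log2(intensity + 16), with 1 point per array, a bar at the mean of 3 and an open diamond for perchlorate replicate 18 (both is diet with perchlorate, perc. is perchlorate). Macrophage markers lie at 8.52 to 8.97 in diet with perchlorate at day 14, above the controls at 7.42 to 7.85, while T cell markers are high in single arrays.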

How the data were processed

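The authors deposited 1 linear intensity for each probe set of each array. Per the submitters' processing notes the tool was GCOS, and its version, settings and scaling target are not given in the sources used here. No depth applies to arrays, and their number limits the precision. The trimmed mean intensity (2%) ran from 320.4 to 487.6, so log2(intensity + 16) was quantile normalized between arrays. Control probe sets (57 of 31099) and those under the 40th percentile of mean level were left out, leaving 18625. Each was fitted in R 4.3.3 with limma 3.58.1, 1 mean per group over 24 arrays, eBayes with a trend, two-sided, Benjamini-Hochberg adjustment over all probe sets tested in a comparison, and called at an adjusted p under 0.05. In all 18 comparisons were made, also without perchlorate replicate 18 of day 1. The fit was tested on simulated data. Genes were named from the platform annotation, in which 20826 probe sets have 1 symbol, 436 several and 9780 none.

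Groups came from the sample titles, whose replicate numbers differ between groups, so no pairing was made. All 8 genes are described, with the listed genes that passed the test (at most 4 by smallest p per list, fewer where they repeat) and counts of the rest. The members and the 14 gene lists were chosen with earlier results of these data known. Promoter windows (300 bases, of which 250 lie before the start) and gene positions are from RefSeq, build GRCr8; 8 of 8 genes matched the gene table by Entrez number and 7 of 8 had a window. The alternatives tried are given in the closing section.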

Additional observations from a re-analysis of the deposited data

Results flagged for a closer look

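The effect of perchlorate on RT1-T24-3 differed between the 2 times: the log2 fold change against control was 2.99 higher at day 14 than at day 1 (SE 0.50, limma adjusted p = 0.0062, a test of the difference itself). All 3 perchlorate arrays lay above the 3 controls at day 14 and below them at day 1. The 3 perchlorate arrays of day 1 are all among the 8 arrays with high RT1-CE16, and 0 of the day 1 controls are. Within each group that holds both kinds of array RT1-T24-3 was lower in those with high RT1-CE16, and the part of that pattern in the difference was not tested. The controls of the 2 times also differed, by -0.97.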

How the results depend on the processing

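Of 2504 values of the 8 genes under the 12 kinds of alternative tried, 15 lost their call, 23 gained one and 1 reversed; in 180 others the sign changed with no call in either setting. The reversed value is RT1-Bb in perchlorate at day 14 against day 1, at -0.31 with the mean of all probe sets, and its probe set 1371033_at, an alternative chosen after seeing the data, gave -3.22. The count of genes called changed as follows, and the cause was not tested. In perchlorate at day 1 against control it was 0 to 1 with each array left out in turn, and in diet at day 14 it was 1 in a fit of only the groups compared. In perchlorate at day 14 it was 0 to 1 with an array left out. In diet with perchlorate at day 14 it was 1 without replicate 18, 1 without replicates 18 and 22, 4 with array weights, 4 in the fit of only these groups and 0 to 1 with an array left out. In perchlorate at day 14 against day 1 it was 1 with no filter, without replicate 18, without replicates 18 and 22, with array weights and with the mean of all probe sets, 0 in the fit of only these groups and 1 to 2 with an array left out. In diet with perchlorate at day 14 against day 1 it was 3 without replicate 18, without replicates 18 and 22 and with array weights, and 1 in the fit of only these groups. For any difference among groups it was 2 with values as deposited, without replicate 18 and without replicates 18 and 22, 3 with array weights and 1 to 2 with an array left out. In the other comparisons the count was the same under every alternative run. The number of probe sets called also changed with the setting: in diet with perchlorate at day 14 it was 808 to 4371, against 1649, in perchlorate at day 14 it was 225 to 1762, against 665, in perchlorate at day 14 over day 1 it was 1 to 3319, against 962, in diet with perchlorate at day 14 over day 1 it was 8 to 2693, against 340, for the perchlorate effect by day it was 30 to 511, against 103, and for any difference among groups it was 737 to 4934, against 1452. No paired analysis was possible because the groups share no replicate numbers. Detection calls were not used here, so signal over background is unknown.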
